A study of Mus musculus with 8 samples.

Results

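The genes described here are those of BMP, TGF-beta and Nodal signaling: the ligands, their extracellular inhibitors, the receptors, the Smads and the Id genes. They were taken by name, as genes, not all of them analysed here, whose array name begins with Bmp, Bmpr, Smad, Acvr, Inhb, Gdf, Tgfbr, Lefty or Grem in the form the family uses, together with Id1 to Id4, Tgfb1 to Tgfb3, Nodal, Nog and Chrd. No measured value entered this choice. The rule found 60 of 36163 gene names, on 80 of 55681 probes, and it also took Bmp1, Bmp2k and Tgfbrap1, whose names fit although their products are an enzyme that processes procollagen and Chordin, a kinase and a receptor-associated protein.

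RNA was measured on 8 Agilent one-color arrays in mouse ES cells of the E14Tg2A line and in their derivatives along neuralization in vitro. ES cells were kept in serum with leukemia inhibitory factor (LIF) and collected at 0 days in vitro (DIV). The other groups were grown in a chemically defined minimal medium without serum and LIF, for 2 DIV to give epiblast-like aggregates (ELA), for 6 DIV to give neural progenitor cells (NPC) and for 10 DIV to give neural precursors (NPC/Neu). Every stage has 1 array of total RNA and 1 array of Ago-RNA, the RNA that an anti-pan Ago antibody brings down from the cytosolic fraction. The cells of all 8 groups come from the same unmodified line, and the groups differ by RNA fraction and by stage. Medium and culture format changed along with stage and cannot be told apart from it. By the study's methods, the aggregates floated in agar-coated dishes and later cells adhered to poly-ornithine and laminin. After 6 DIV the medium lacked the B27 supplement. By the labels, RNA of 3 experiments was pooled before hybridization, and a difference between 2 arrays therefore has no replicate check and no p-value.

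TGF-beta family ligands are secreted dimers that bring type I and type II receptor kinases together. BMPs signal through Smad1, Smad5 and Smad9, and Nodal, Activins and TGF-betas through Smad2 and Smad3, with Smad4 as the common partner of both branches. Id1, Id2 and Id3 are classical transcriptional targets of BMP signaling, Lefty1, Lefty2 and Smad7 are targets of the Nodal and Activin branch that limit it in return, and Smad6 limits the BMP branch. In mouse ES cells BMP4 together with LIF keeps the undifferentiated state, while Nodal and Activin maintain the primed epiblast, and neural tissue forms where both branches are kept low. Argonaute proteins carry miRNAs to their target mRNAs, and the ratio of Ago-RNA to total RNA is a measure of how much of an mRNA is brought down with them.

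Of the 60 genes, 40 passed the scanner software's test for a signal well above background on all 8 arrays, 15 on some of them, and 5 (Acvr1c, Bmp15, Gdf2, Gdf6 and Smad9) on none. Values are quantile-normalized log2 signals, given in the order ES, ELA, NPC and NPC/Neu, and no gene's level is set against another's because probes differ in brightness. Where a gene was well above background on only 1 side of a comparison, a bound was computed against the dimmest signal that passed on the other array, and such a gene enters a comparison only through the side on which it is high. A gene was counted as changed when 2 arrays differed by 2-fold or more. For 399 probes printed in 10 spots, the SD between spots was 0.168 to 0.22 log2 units for Ago-RNA over total RNA and 0.153 to 0.238 for a change in total RNA. For the 150 dimmest of them, with a mean log2 signal under 8, these SDs reached 0.326 and 0.348. This is the noise of spots, not of cultures. The 8 arrays held 53.4% to 61.2% of spots well above background, with the brightest signal on the ES Ago-RNA array.

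Markers of the labelled stages were read in total RNA. All 7 ES cell markers were highest in ES, and 4 of 5 primed epiblast markers were highest in ELA. In NPC/Neu 4 of 5 neural progenitor and 4 of 4 neuronal markers were highest. Only 1 neural progenitor marker, Hes5, was highest in NPC, so the lists did not set NPC apart from NPC/Neu by a peak of its own. Among markers of other cells the cultures could hold, the summed log2 level of 5 mesendoderm genes was 9.71, 10.31, 11.24 and 12.16, with Mixl1 not above background at any stage. The summed level of 5 neural crest and mesenchyme genes was 12.84, 12.85, 11.50 and 10.75, led by Foxd3 in ES and ELA. For 4 endoderm genes it lay between 8.85 and 9.18, with Afp and Gata6 not above background, and for 3 astrocyte genes between 8.90 and 9.46. The summed level of 3 trophoblast genes was 8.76, 8.05, 9.70 and 8.28, highest in NPC through Cdx2, with Elf5 not above background at any stage and Hand1 in ES alone. A sum follows its brightest probes and need not give the course of each gene. Eomes and Foxa2 were highest in NPC/Neu, at 11.33 and 10.10, while T and Gsc were highest in NPC. Of the 5 neural crest and mesenchyme genes, 3 were highest in NPC, although their sum was not.

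The total RNA comparisons ask how the pathway changes as ES cells are primed and then neuralized. From ES to ELA, 2 of the 48 genes that could be compared were 2-fold or more higher and 12 were lower, against 4.25% and 4.35% of all genes on the arrays. The genes higher in ELA were the receptors Acvr1 and Tgfbr3. Those lower in ELA were Nodal, Lefty1, Lefty2, Gdf3, Inhbb and Tgfb2, the BMP ligands Bmp4 and Bmp8b, the inhibitory Smad7, and Id1, Id2 and Id4. From ELA to NPC the pattern was the opposite, with 22 of 52 genes higher and 3 lower, against 9.92% and 9.29% of all genes. Among the 22 were Id1 to Id4, Smad3, Smad6 and Smad7, the ligands Bmp4, Bmp5, Bmp6, Bmp7, Gdf7, Gdf9, Gdf10, Tgfb2 and Tgfb3, the inhibitor Grem1, and the receptors Acvr2a, Bmpr1a, Bmpr1b and Tgfbr1, while Gdf3, Gdf15 and Tgfb1 were lower. The median of the 52 compared genes was 0.80 log2 units higher, while the median over all genes was 0. From NPC to NPC/Neu 5 of 52 genes were higher and 9 were lower, against 5.46% and 3.92%. Bmp2, Bmp3, Id4 and Tgfb2 were among the genes higher in NPC/Neu, and Bmp4, Bmp5, Bmp6, Bmpr1b, Gdf10, Grem1, Id1, Id3 and Smad6 were lower. Of the compared genes, 6, 10 and 2 had a bound in place of a measured change at the 3 transitions. In bulk RNA of this kind, fewer cells of a type and less RNA per cell cannot be told apart.

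**Figure D1:**
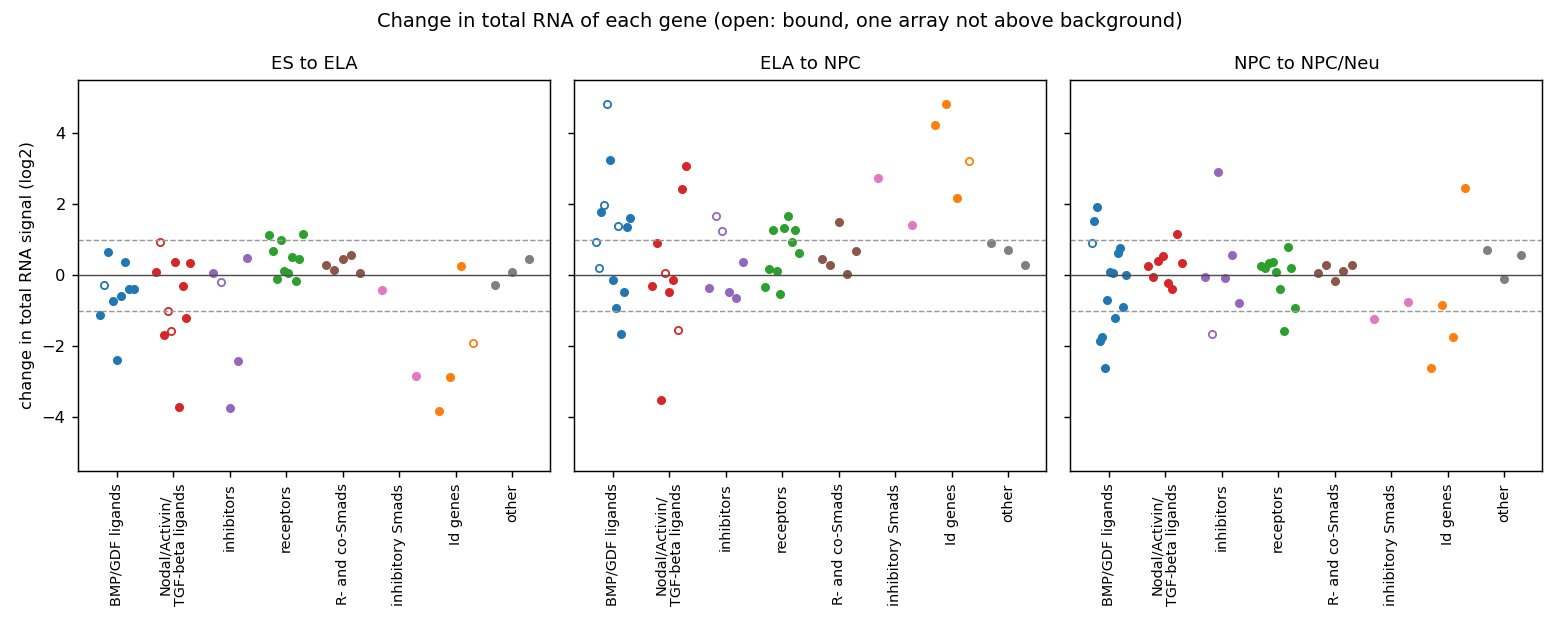
Change in total RNA signal (log2, vertical axis) of each gene between consecutive stages, 1 panel per transition, with genes grouped by their role along the horizontal axis. Filled points are measured changes, open points are bounds, and dashed lines mark 2-fold. All 4 Id genes and both inhibitory Smads lie above the upper line from ELA to NPC.

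Among the 54 genes above background on at least 1 total RNA array, the total RNA signal was highest in ES for 11, in ELA for 5, in NPC for 18 and in NPC/Neu for 20. Over all genes detected in this way the shares were 30.8%, 20.7%, 20.2% and 28.3%.

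Nodal, the ligand that patterns the early embryo, had total RNA signals of 13.36, 9.66, 9.54 and 9.15 and Ago-RNA signals of 13.68, 9.39, 9.69 and 9.55. It was 13-fold lower in ELA than in ES, and it stayed within 2-fold of its ELA signal afterwards. Lefty1, a secreted inhibitor of Nodal, had total RNA signals of 11.86, 8.13, 7.65 and 7.58 and Ago-RNA signals of 12.23, 9.24, 8.73 and 8.66, and was 13.3-fold lower in ELA. Lefty2, the second inhibitor of the pair, had 11.85, 9.43, 8.79 and 9.36 in total RNA and 12.11, 9.20, 8.24 and 9.61 in Ago-RNA, and was 5.35-fold lower. For all 3 genes ES stood apart from the other stages, in total RNA and in Ago-RNA alike. Nodal lies on chr10:60880720-60888086, plus strand of mm9, Lefty1 on chr1:182865153-182868531, plus strand and Lefty2 on chr1:182823239-182829234, plus strand, and each was measured by 1 probe. Of the same branch, Tdgf1, the coreceptor Cripto, had total RNA signals of 13.31, 10.11, 8.56 and 8.57 and was 9.22-fold lower in ELA. Foxh1, the DNA-binding partner of Smad2 and Smad3, had 12.29, 12.83, 8.25 and 7.56, and was 24-fold lower only in NPC.

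**Figure D2:**
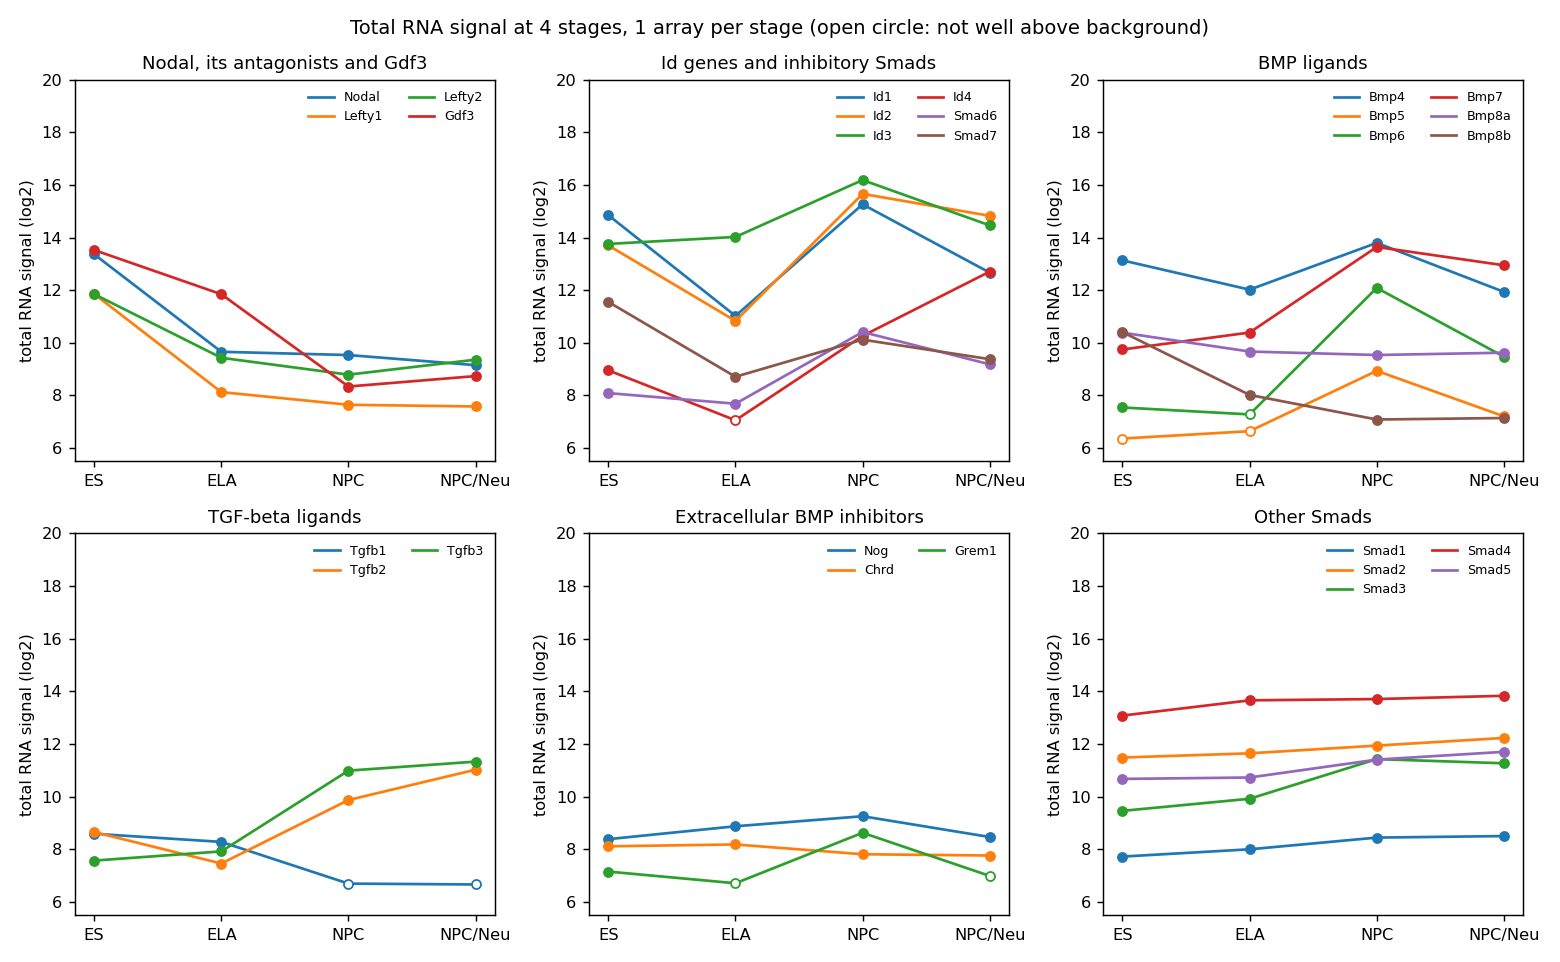
Total RNA signal (log2, vertical axis) at the 4 stages (horizontal axis) for named genes of 6 groups, 1 array per stage. Filled circles are signals well above background and open circles are not. Nodal and both Lefty genes drop after ES, while Id1 and Id2 dip in ELA and peak in NPC.

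The Lefty mRNAs hold a feature that the choice by name did not use. The miR-290 and miR-302 families, miRNAs of pluripotent mouse cells, share a seed (bases 2 to 8, in capitals in these mature sequences from RefSeq, GRCm38.p6), which a target site matches in reverse complement.
mmu-miR-291a-3p: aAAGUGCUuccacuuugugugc
mmu-miR-294-3p: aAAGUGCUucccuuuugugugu
mmu-miR-295-3p: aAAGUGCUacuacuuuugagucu
mmu-miR-302b-3p: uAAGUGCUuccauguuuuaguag
mmu-miR-302d-3p: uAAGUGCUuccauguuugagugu

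The match to this seed, AGCACTT read on the transcript strand, was searched in the longest annotated 3′ UTR of each gene (GENCODE release M1, mm9). It was found in 11 of 59 pathway genes, or 18.6%, and in 13.9% of 18638 genes with a 3′ UTR, while the median 3′ UTR was 1246 bases long among the former and 927 bases among the latter. The genes were Acvr1c, Acvrl1, Bmp8b, Gdf11, Inhbb, Lefty1, Lefty2, Smad2, Smad5, Tgfbr1 and Tgfbrap1, with 3 matches in Gdf11 and 2 in Smad5. For 7 of these genes 1 site is shown, with the seed match in capitals.
Lefty1, bases 238 to 244 of the 3′ UTR: actgtatgcgaAGCACTTacatgtataga
Lefty2, bases 104 to 110: cacccagtttaAGCACTTacatgggtaaa
Gdf11, bases 1571 to 1577: gatgaattctgAGCACTTaccacgggcac
Inhbb, bases 1176 to 1182: cacaccacaatAGCACTTgcaggtctacg
Bmp8b, bases 491 to 497: cttgtaatcttAGCACTTgggaagctgag
Tgfbr1, bases 342 to 348: gcactaaatgaAGCACTTctgattttcac
Smad5, bases 4008 to 4014: gtcagtgctcgAGCACTTagcaggcatcg
A match of letters is a description of the sequence, and no binding was measured at these sites.

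Gdf3, a ligand that shares receptors with Nodal, was measured by a pair of probes. Its mean total RNA signals were 13.53, 11.85, 8.34 and 8.74 and its Ago-RNA signals 12.96, 11.59, 8.36 and 8.84. The mean was 3.2-fold lower in ELA than in ES, and a further 11.4-fold lower in NPC. Both probes moved the same way, with a log2 change from ELA to NPC of -5.29 for one and -1.72 for the other, so the size of that change depends on the probe. Gdf1, which acts with Nodal, stayed between 9.84 and 10.14 in total RNA, and both of its probes match the bicistronic Lass1 transcript without a mismatch, so the genes cannot be told apart. No probe of another gene of the pathway matched the coding transcripts of a different gene with 6 or fewer mismatches.

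The inhibin beta genes encode the subunits of Activins. Inhba was above background only in ES, with total RNA signals of 8.01, 7.01, 6.56 and 6.68 and Ago-RNA signals of 8.25, 7.02, 6.53 and 6.80, and its bound for a lower total RNA signal in ELA fell just short of 2-fold. Inhbb had 8.55, 6.98, 7.04 and 7.59 in total RNA and 9.36, 7.09, 7.81 and 8.88 in Ago-RNA, was at least 2.96-fold lower in ELA, where it was not above background, and passed again in NPC and NPC/Neu. The ES signal was the highest of the total RNA signals for both subunits. Inhbe remained between 7.35 and 8.05 in total RNA. Gdf11, a ligand of Activin receptors, had 6.81, 7.75, 8.66 and 8.62 in total RNA, with its ES signal not above background.

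The 3 TGF-beta ligands went different ways. Tgfb1 had total RNA signals of 8.58, 8.28, 6.69 and 6.66 and Ago-RNA signals of 8.89, 8.49, 6.93 and 6.78, and was not above background in NPC and NPC/Neu, which made it at least 2.88-fold lower in NPC than in ELA. Tgfb2 had 8.65, 7.45, 9.87 and 11.02 in total RNA and 9.27, 7.97, 10.12 and 11.87 in Ago-RNA. It was 2.29-fold lower in ELA, then 5.33-fold higher in NPC and 2.23-fold higher again in NPC/Neu. Tgfb2 was thus lowest in ELA and highest in NPC/Neu. Tgfb3 had 7.56, 7.91, 10.98 and 11.33 in total RNA and 8.08, 8.41, 11.96 and 11.77 in Ago-RNA, and was 8.4-fold higher in NPC than in ELA. Its probe was printed in 10 spots, over which this change was 3.01 ± 0.33 log2 units (SD, n = 10 spots). The Tgfb1 probe was printed in 10 spots as well, and its difference from ES to ELA was -0.26 ± 0.20 log2 units (SD, n = 10 spots).

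The ligands Bmp4, Bmp5, Bmp6 and Bmp7 were highest in NPC. Of the 17 BMP and GDF ligands, 13 could be compared from ELA to NPC, 7 were 2-fold or more higher and 1 (Gdf15, a stress-induced ligand) was lower, against 9.92% and 9.29% of all genes. Bmp4, whose product sustains the self-renewal of ES cells with LIF, had total RNA signals of 13.13, 12.02, 13.80 and 11.94 and Ago-RNA signals of 13.45, 12.25, 13.69 and 12.25. It was 2.16-fold lower in ELA, 3.43-fold higher in NPC and 3.63-fold lower in NPC/Neu. A second, dim Bmp4 probe was above background on no array and was not used, and with it averaged in these 3 changes fell short of 2-fold. Bmp7, a ligand of dorsal neural tissue, had 9.75, 10.39, 13.64 and 12.95 in total RNA and 9.11, 9.84, 13.66 and 12.54 in Ago-RNA and was 9.53-fold higher in NPC. Bmp6, its close relative, had 7.54, 7.28, 12.09 and 9.47 and 8.11, 7.27, 12.06 and 9.82, was at least 28-fold higher in NPC than in ELA, where its total RNA was not above background, and 6.11-fold lower in NPC/Neu. Both were highest in NPC, in total RNA and in Ago-RNA.

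Bmp5, of the same subgroup as Bmp6 and Bmp7, was not above background before NPC. Its total RNA signals were 6.36, 6.64, 8.94 and 7.21 and its Ago-RNA signals 6.74, 6.60, 8.92 and 7.49, so that it was at least 3.93-fold higher in NPC and 3.31-fold lower in NPC/Neu. Gdf7 and Gdf10, further ligands of the family, were also highest in NPC, with Gdf7 2.57-fold higher and Gdf10 at least 2.61-fold higher in NPC. The probes of Gdf7 gave log2 changes of 0.77 and 1.95, so that with its brightest probe alone it fell short of 2-fold. Bmp2 and Bmp3 were instead highest in NPC/Neu, and their total RNA was not above background in ES and ELA. Bmp3, which antagonizes other BMPs, had 6.80, 6.65, 7.18 and 9.1 in total RNA but 6.99, 7.83, 7.62 and 7.66 in Ago-RNA, and was 3.78-fold higher in the total RNA of NPC/Neu. Bmp2 had 6.91, 6.94, 7.88 and 9.41 in total RNA and was 2.88-fold higher. Bmp8a and Bmp8b, a pair of neighboring and similar genes, differed. Bmp8b had 10.41, 8.02, 7.08 and 7.14 in total RNA and 10.20, 8.12, 7.85 and 7.30 in Ago-RNA, and was 5.24-fold lower in ELA than in ES, while Bmp8a had 10.39, 9.67, 9.54 and 9.62 and 9.38, 8.80, 8.07 and 7.80 and changed by less than 2-fold in total RNA at each transition.

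Among the extracellular inhibitors of BMPs, Nog had total RNA signals of 8.38, 8.87, 9.25 and 8.46 and Ago-RNA signals of 7.49, 8.79, 9.21 and 8.14, and Chrd had 8.11, 8.18, 7.81 and 7.76 and 8.11, 8.04, 7.92 and 7.73. Neither Noggin nor Chordin mRNA changed by 2-fold in total RNA at a transition. Grem1 had 7.15, 6.70, 8.62 and 6.98 in total RNA and 7.63, 6.77, 8.18 and 7.00 in Ago-RNA, above background in ES and NPC alone. It was at least 3.16-fold higher in NPC and at least 3.12-fold lower in NPC/Neu. Its total RNA signal was highest in NPC.

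From ES to ELA 2 of 10 compared receptors were 2-fold or more higher and none was lower (all genes, 4.25% and 4.35%), and from ELA to NPC 4 were higher and none was lower (all genes, 9.92% and 9.29%). From NPC to NPC/Neu 1 receptor, Bmpr1b, was lower, by a fold of 2.96, and none was higher (all genes, 3.92% and 5.46%). The type I BMP receptor Bmpr1a had total RNA signals of 12.15, 12.22, 13.55 and 13.15 and Ago-RNA signals of 13.09, 12.72, 13.47 and 13.38, and was 2.51-fold higher in NPC. Tgfbr1, the type I receptor for TGF-beta, had 9.20, 9.66, 10.93 and 11.13 and 9.75, 10.14, 11.29 and 11.85, and was 2.41-fold higher in NPC. Both thus had more signal in NPC and NPC/Neu than before. Acvr1b, the type I receptor for Activin and Nodal, had 9.34, 10.03, 10.20 and 10.39 and 10.30, 10.76, 11.18 and 10.94, with no change of 2-fold in total RNA. Acvr2a, a type II receptor of the Activin group, had 7.63, 7.54, 8.80 and 9.15 in total RNA and was 2.4-fold higher in NPC.

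By the mean over their probes, most Smads that carry the signal changed by less than 2-fold between consecutive stages. Smad1 had total RNA signals of 7.72, 7.99, 8.44 and 8.50 and Ago-RNA signals of 7.72, 8.01, 8.35 and 8.20, and Smad5, which like Smad1 acts below BMP receptors, had 10.67, 10.72, 11.40 and 11.70 and 11.20, 11.08, 12.07 and 12.54. Smad2 had 11.48, 11.64, 11.93 and 12.23 and 11.66, 12.39, 12.80 and 12.73, and the common Smad4 had 13.08, 13.66, 13.70 and 13.83 and 13.62, 13.55, 13.80 and 14.04. None of these 4 genes changed by 2-fold in total RNA at any transition in the mean over its probes. For Smad5 the 2 probes gave log2 changes of 0.05 and 1.31 from ELA to NPC, so the call depends on the probe. The probe with the smaller change matches no coding transcript of Smad5 in full. Smad3 had 9.46, 9.91, 11.42 and 11.26 and 10.22, 10.45, 12.07 and 12.48, and was 2.84-fold higher in NPC than in ELA.

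The inhibitory Smads varied more. Smad7, which blocks receptor signaling of the whole family, had total RNA signals of 11.55, 8.71, 10.12 and 9.38 and Ago-RNA signals of 12.37, 9.41, 10.90 and 10.41, so that it was 7.19-fold lower in ELA than in ES and 2.66-fold higher in NPC. Smad6 had 8.09, 7.68, 10.41 and 9.18 and 8.68, 8.51, 11.60 and 10.36, and was 6.62-fold higher in NPC and 2.35-fold lower in NPC/Neu. Smad7 was highest in ES and Smad6 in NPC, and both were lowest in ELA.

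Id proteins bind and inactivate basic helix-loop-helix factors such as the proneural factors. Id1 had total RNA signals of 14.85, 11.02, 15.26 and 12.67 and Ago-RNA signals of 14.06, 10.80, 15.56 and 12.53. It was 14.2-fold lower in ELA than in ES, 18.9-fold higher in NPC than in ELA, and 6.04-fold lower in NPC/Neu than in NPC. Id2 followed the same course, with 13.70, 10.83, 15.66 and 14.83 in total RNA and 12.62, 10.90, 16.15 and 14.07 in Ago-RNA, and changes that were 7.31-fold lower, 28.4-fold higher and 1.78-fold lower. Both were lowest in ELA and highest in NPC. Id3 had 13.76, 14.02, 16.19 and 14.46 and 13.39, 14.86, 17.82 and 14.19. It did not dip in the total RNA of ELA, was 4.48-fold higher in NPC and 3.3-fold lower in NPC/Neu. Id4 had 8.95, 7.06, 10.26 and 12.71 and 9.21, 7.20, 10.51 and 12.32, with the ELA total RNA signal not above background, and was at least 9.23-fold higher in NPC and 5.45-fold higher again in NPC/Neu. Id4 alone of the 4 was highest in NPC/Neu.

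Since the Id genes are direct targets of BMP Smads, which bind GC-rich elements, their promoters were read where RefSeq gives one (250 bases before the start site, GRCm38.p6, a later build than that of the arrays). The motif GGCGCC, which reads the same on both strands, stood in 10 of 41 pathway promoters, or 24.4%, and in 9.54% of 27025 promoters. The GC content of the promoters was not compared. Id1 was not among the 41 and could not be read. Id2 and Id4 held the motif and Id3 did not, and the windows around the match are shown with the motif in capitals.
Id2 (chr12:25096288-25096342, minus strand): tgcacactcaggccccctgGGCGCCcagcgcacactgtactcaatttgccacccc
Id4 (chr13:48260938-48261003, plus strand): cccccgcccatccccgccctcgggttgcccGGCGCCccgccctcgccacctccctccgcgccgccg
The Smad palindrome GTCTAGAC stood in none of the 41 promoters and in 0.174% of all. These matches are descriptions, and binding of a factor was not measured.

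Other genes of the pathway were read from a list of 56, of which 55 were on the arrays. In total RNA, 3 were 2-fold or more higher and 7 were lower of 48 compared from ES to ELA, 16 were higher and 7 lower of 52 from ELA to NPC, and 5 were higher and 6 lower of 53 from NPC to NPC/Neu. Over all genes the shares higher and lower were 4.25% and 4.35%, then 9.92% and 9.29%, and last 5.46% and 3.92%. Msx1 and Msx2, homeobox targets of BMP signaling, had total RNA signals of 9.44, 9.40, 13.15 and 9.48 and of 8.48, 8.36, 12.80 and 8.75. Msx1 was 13.4-fold higher in NPC than in ELA and 12.7-fold lower in NPC/Neu, and Msx2 was 21.8-fold higher and then 16.6-fold lower. Their peak in NPC was the one seen for Id1, Id2 and Id3. Follistatin, an inhibitor of Activins and BMPs encoded by Fst, had 10.58, 10.87, 12.94 and 10.11, with the same peak. Skil, a Smad corepressor, had 12.37, 11.96, 9.85 and 10.10 and was 4.31-fold lower in NPC. Zeb1, a repressor that binds Smads, had 8.12, 8.31, 13.04 and 13.49 and was 26.6-fold higher in NPC. Some markers of other cells were also highest in NPC: Twist1 had total RNA signals of 8.03, 9.16, 9.95 and 8.69, Pdgfra 6.50, 6.86, 9.93 and 7.63, T 7.19, 7.19, 9.73 and 9.31, and Cdx2 7.04, 6.63, 9.29 and 6.88, where Pdgfra was above background from NPC on and Cdx2 in ES and NPC. Other members of the same lists were not, such as Foxd3, with 12.60, 12.59, 6.48 and 7.29, and Eomes, with 8.60, 9.29, 8.69 and 11.33. Foxd3 was not above background in NPC. The part of these other cells in the changes of the pathway genes was not tested.

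Ago enrichment (E), the log2 signal of Ago-RNA minus that of total RNA, asks how far each mRNA is brought down with Ago. In ES, 4 of 53 compared genes were 2-fold or more higher in Ago-RNA and 2 were lower, against 9.48% and 10.6% of all genes. In ELA the counts were 4 and 0 of 47, against 3.78% and 2.93%, and in NPC 5 and 1 of 52, against 5.21% and 5.66%. In NPC/Neu they were 10 and 2 of 51, against 10.9% and 11.5%. The median E of the compared genes was 0.32, 0.24, 0.44 and 0.42 at the 4 stages, and over all genes -0.03 to 0.04. All genes here include names without an annotated coding transcript. Among genes with an annotated 3′ UTR, the median E in ES was 0.35 for 2275 with the seed match and 0.14 for 12785 without it. In ES the genes past 2-fold were the receptors Acvr1, Acvr2a, Acvr2b and Bmpr2, and in ELA Acvr2a, Bmpr2, Gdf11 and Lefty1. In NPC they were Acvr1, Acvr2b, Id3, Lefty1 and Smad6, and in NPC/Neu Acvr1, Acvr2a, Acvr2b, Bmpr2, Tgfbr3, Inhbb, Lefty1, Smad3, Smad6 and Smad7. In 1 alternative setting each, Acvr2a in ELA had an E of 0.83, Bmp8a and Id2 in ES had -0.73 and -0.61, and Smad7 and Tgfbr3 in NPC/Neu had 0.98, short of 2-fold. With the main processing no pathway gene reached an E of 2 at any stage, which 0.353% to 1.19% of all genes did. In alternative settings Acvr2a in ES and Acvr1 in NPC/Neu had values of up to 2.04. The counts depended on the scaling of the arrays: with quantile normalization within each kind of RNA the ES counts were 10 higher and 0 lower, and with the scanner software's processed signal 13 and 3. With that signal scaled to the 75th percentile they were 5 and 2 in ELA and 9 and 5 in NPC/Neu.

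**Figure D3:**
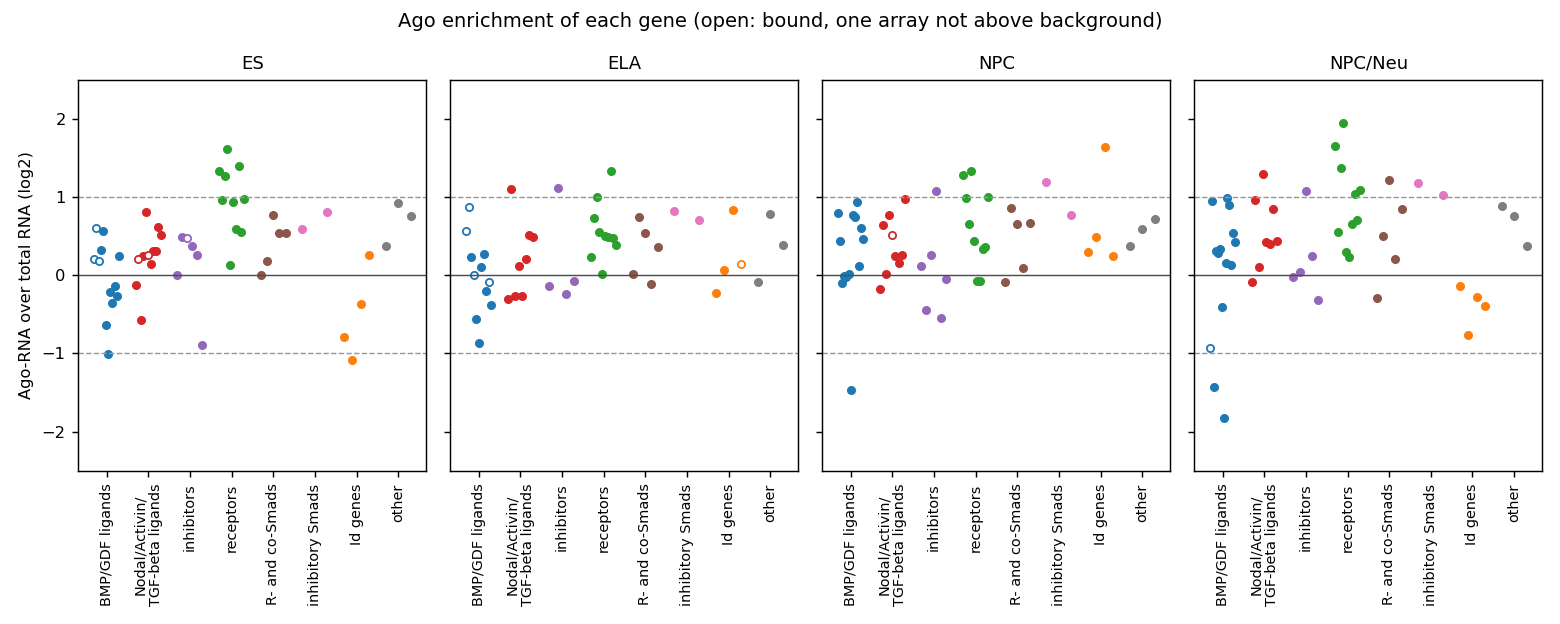
Ago enrichment (Ago-RNA over total RNA, log2, vertical axis) of each gene at the 4 stages, 1 panel per stage, with genes grouped by role along the horizontal axis. Filled points are measured ratios, open points are bounds, and dashed lines mark 2-fold. The receptors lie at or above 0 at each stage except for Bmpr1a and Bmpr1b in NPC.

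The receptors were the group with the highest median E in ES, at 0.97 over 10 receptors, with 4 of them 2-fold or more higher in Ago-RNA. Over all genes the share this much higher in ES was 9.48%. Among all genes with an annotated transcript of 4000 bases or more it was 1397 of 4371, with a median E of 0.69. The longest transcript of the receptors had a median of 5349 bases. Of 14 pathway genes at or over 4000 bases, 1 was 2-fold or more higher in ES. Acvr1, Acvr2b and Bmpr2 fell among the shorter genes by their annotation, with longest transcripts of 3293, 1729 and 3507 bases. The annotated 3′ UTRs of Acvr2b and Bmpr2 are only 40 and 374 bases long and may not be complete, so this count depends on the annotation. Whether length accounts for the receptor values was not tested. Acvr2b, a type II receptor for Activins, Nodal and several BMPs, had total RNA signals of 14.69, 15.68, 15.81 and 16.19 and Ago-RNA signals of 16.31, 16.23, 17.15 and 18.15, and its E was 1.62, 0.55, 1.33 and 1.95. Acvr1, the BMP type I receptor also called ALK2, had 10.32, 11.44, 11.10 and 11.35 in total RNA and 11.65, 11.68, 12.38 and 13.00 in Ago-RNA, with E of 1.33, 0.24, 1.28 and 1.65. Both had their lowest E in ELA and their highest in NPC/Neu. For Acvr1 the total RNA signal in ELA was 2.18-fold higher than in ES while the Ago-RNA signal was nearly equal. Bmpr2, the type II BMP receptor, had total RNA signals of 8.89, 8.73, 9.67 and 10.45 and Ago-RNA signals of 10.29, 10.06, 10.01 and 11.49, with E of 1.40, 1.33, 0.34 and 1.04, lowest in NPC. Acvr2a had Ago-RNA signals of 8.90, 8.54, 9.46 and 10.52 and E of 1.26, 1.00, 0.66 and 1.37, also lowest in NPC. The E of Bmpr1a was 0.94, 0.51, -0.07 and 0.23, that of Acvr1b was 0.96, 0.73, 0.98 and 0.55 and that of Tgfbr1 was 0.55, 0.48, 0.36 and 0.71.

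**Figure D4:**
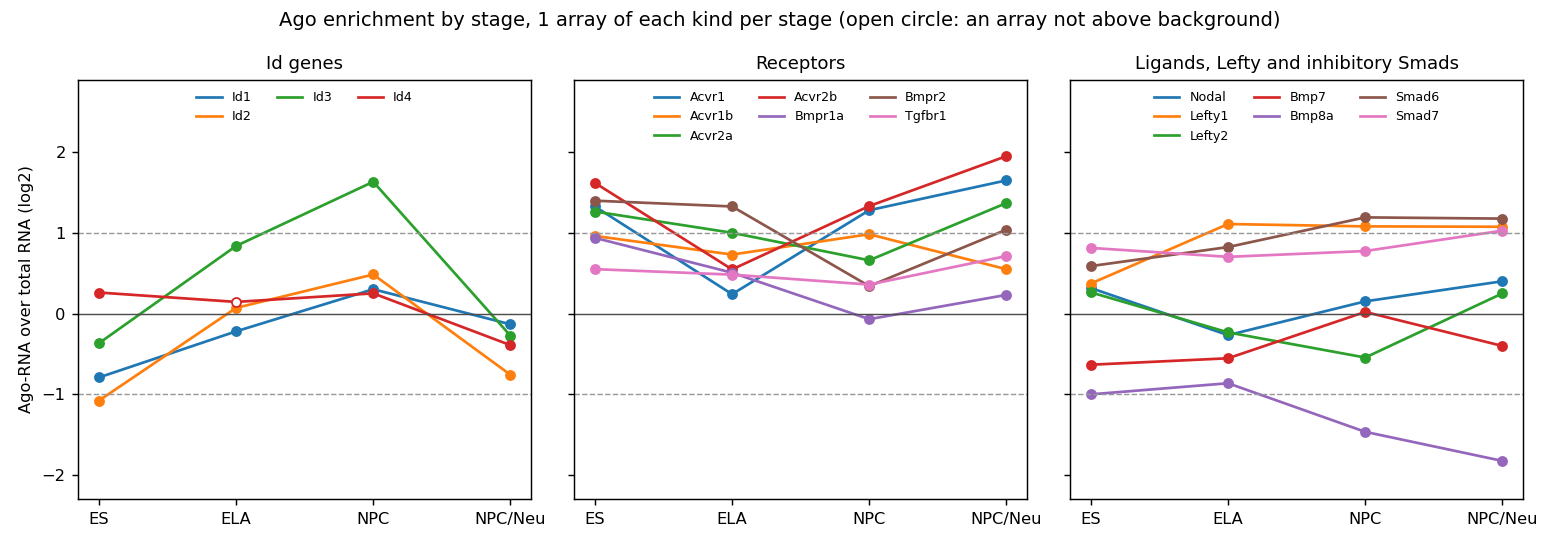
Ago enrichment (Ago-RNA over total RNA, log2, vertical axis) at the 4 stages (horizontal axis) for the Id genes, 7 receptors, and ligands, Lefty genes and inhibitory Smads. Open circles mark a stage at which an array was not above background, and dashed lines mark 2-fold. Id1, Id2 and Id3 go up to NPC and down again in NPC/Neu, and Acvr1 and Acvr2b dip in ELA.

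Among the inhibitors of signaling, Lefty1 had E of 0.37, 1.11, 1.08 and 1.08, 2-fold or more from ELA on, while Lefty2, which holds a match to the same seed, had 0.26, -0.23, -0.55 and 0.25. The pair therefore did not share one course of E. Smad6 had E of 0.59, 0.82, 1.19 and 1.18 and Smad7 0.81, 0.70, 0.78 and 1.03, above 0 at every stage for both. Inhbb had a measured E of 1.29 in NPC/Neu, and Nodal stayed between -0.27 and 0.40.

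In Ago-RNA, 2 of 53 compared genes were 2-fold or more lower in ES and 0 of 47 in ELA. In NPC it was 1 of 52 and in NPC/Neu 2 of 51. The shares of all genes, including names without an annotated coding transcript, were 10.6%, 2.93%, 5.66% and 11.5%. Among genes with an annotated 3′ UTR, 84 of 2275 with the seed match and 939 of 12785 without it were this much lower in ES. Bmp8a had E of -1.0, -0.87, -1.47 and -1.83, below 0 at each stage, and in NPC/Neu its Ago-RNA signal was 3.55-fold lower than its total RNA signal. Bmp3 had E of 0.44 in NPC and -1.43 in NPC/Neu, and its total RNA was not above background before. Id1 and Id2 in ES, with E of -0.79 and -1.08, Nog in ES, with -0.89, and Bmp7 in ES, with -0.64, were among the other low measured values. Bmp10 had a bound of -0.93 in NPC/Neu, where its Ago-RNA was not above background.

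The change in E between stages (ΔE) asks whether an mRNA gains or loses Ago relative to its own level. From ES to ELA 2 of 41 genes had a ΔE of 1 or more and 2 of -1 or less, against 8.3% and 6.64% of all genes. From ELA to NPC it was 1 and 0 of 41, against 1.67% and 3.17%, and from NPC to NPC/Neu 0 and 3 of 50, against 2.05% and 4.06%. The Id genes made up 4 of these 8 values. Id3 had E of -0.37, 0.84, 1.63 and -0.28, with a ΔE of 1.21 from ES to ELA and -1.91 from NPC to NPC/Neu. Id2 had E of -1.08, 0.07, 0.48 and -0.76, with 1.15 and -1.24 at the same transitions. Id1 had E of -0.79, -0.22, 0.30 and -0.13, with steps in the same directions that stayed under 2-fold, and the E of Id4 was 0.26 in ES, 0.25 in NPC and -0.39 in NPC/Neu. All 4 Id genes had a lower E in NPC/Neu than in NPC. The other 4 values were Acvr1 at -1.09 and Acvr2b at -1.07 from ES to ELA, Acvr1 at 1.04 from ELA to NPC, and Bmp3 at -1.87 from NPC to NPC/Neu. The spot SD of a ΔE was 0.23 to 0.29 log2 units. Some of these values fell short of 2-fold in 1 or 2 of the alternative settings: from ES to ELA Acvr2b had a ΔE of -0.53 and Acvr1 of -0.88, from ELA to NPC Acvr1 had 0.99, and from NPC to NPC/Neu Id2 had a value as small as -0.81. The largest value under 2-fold was that of Bmpr2 from ELA to NPC, at -0.99.

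Ago-RNA mostly followed total RNA. Of the genes above background on all 4 arrays of a transition, 32 of 41 changed in the same direction in both fractions from ES to ELA, 38 of 41 from ELA to NPC and 39 of 50 from NPC to NPC/Neu, where all genes gave 64.2%, 76.5% and 72.7%. Both changes are taken from separate arrays of the same cultures. Of the genes with a total RNA change of 2-fold or more, 12 of 12, 17 of 17 and 13 of 13 had the same direction in Ago-RNA, and of all genes with such a change 94.1%, 97.4% and 93.8% did. In the Ago-RNA of NPC/Neu, Bmp3 had nearly the same signal as in NPC although its total RNA was 3.78-fold higher.

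**Figure D5:**
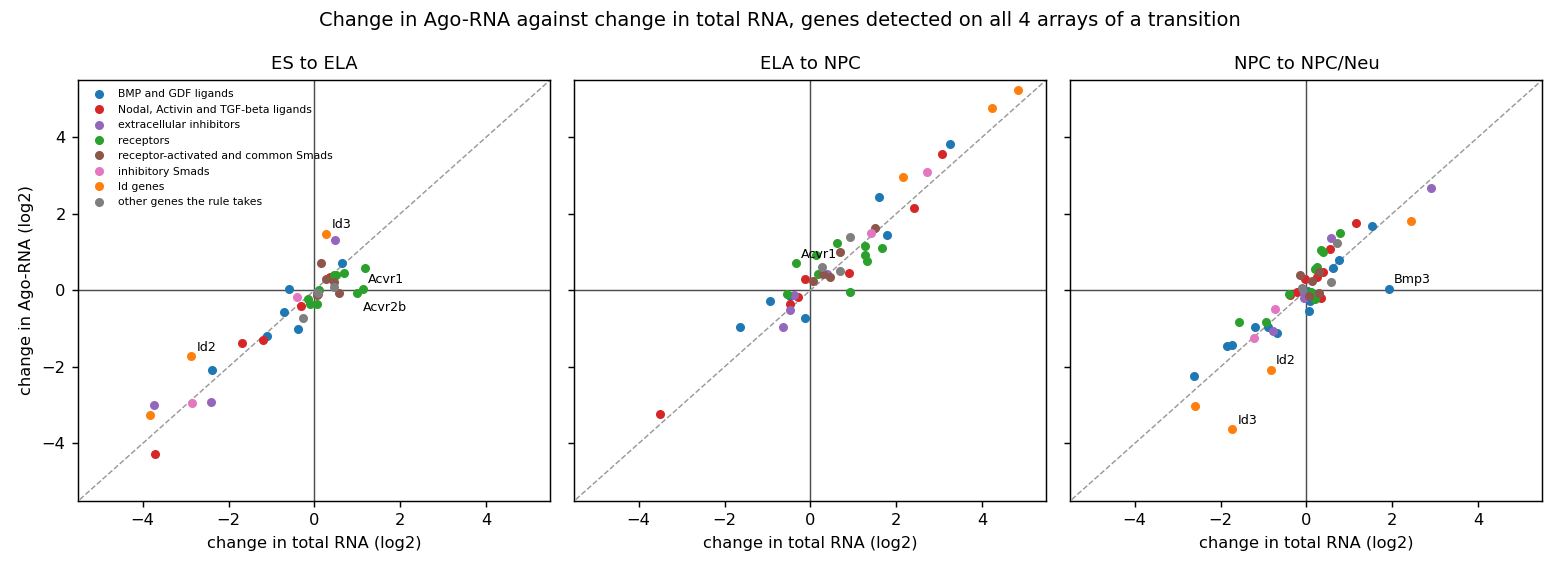
Change in Ago-RNA (log2, vertical axis) against change in total RNA (log2, horizontal axis) for genes above background on all 4 arrays of a transition, 1 panel per transition and 1 color per role. The dashed line marks equal changes, and genes with a change in Ago enrichment of 2-fold or more are named. Most points lie near the line, with Id3 and Id2 below it from NPC to NPC/Neu.

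Length and seed matches were set beside E as properties that the choice by name did not use. In this paragraph, all genes are those with an annotated 3′ UTR, a smaller set than in the counts above. The longest transcript of the receptors had a median length of 5349 bases and that of the Id genes 1274 bases, with 3293 bases over all pathway genes and 2679 over all genes. In ES the median E was 0.76 for 14 pathway genes with a transcript of 4000 bases or more and 0.24 for 38 shorter ones. Over all genes the same medians were 0.69 and -0.01. In NPC/Neu they were 0.85 for 13 and 0.29 for 37 pathway genes, and 0.67 and 0.03 over all genes. Acvr2b and Bmpr2, with high E, have annotated transcripts of 1729 and 3507 bases. Their annotated 3′ UTRs are only 40 and 374 bases long, and the seed search read no more than these. Whether the annotation holds their full mRNAs was not tested, so the 2 genes cannot be taken as short mRNAs. In ES the median E was 0.32 for 10 pathway genes with a match to the miR-290 and miR-302 seed and 0.32 for 42 without one, and over all genes 0.35 and 0.14. From ES to ELA the median ΔE was -0.09 for 8 pathway genes with a match and -0.11 for 33 without, and -0.08 and -0.12 over all genes. The paper reports lower miR-290 and higher miR-302 cluster members in ELA. Because both share the seed, this comparison cannot show the effect of either family. Genes with a match have longer 3′ UTRs, with a median of 2250 against 774 bases over all genes, so length and the match cannot be told apart here.

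Of the 80 probes, 57 lie in an annotated 3′ UTR, 13 in a coding sequence and 3 across the boundary, and 7 match no coding transcript of their gene in full. For 16 genes a pair or more of probes was averaged. Their values differed most for Gdf3 and Bmp1, with log2 changes from ELA to NPC of 0.09 to 2.52 between the probes of Bmp1. For Smad5 the probes gave E of -0.22 and 1.29 in ES.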

How the data were processed

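Per the file headers, the authors deposited the spot intensity that Feature Extraction 10.7.3.1 read from each array (the labels name version 9.1): a mean and a local background intensity per spot, not normalized between arrays. The labels state 50 ng of labeled RNA per array, pooled from 3 experiments, while the methods of the study give a larger amount of RNA for labeling. Here the background was corrected with normexp (offset 50, limma 3.58.1, R 4.3.3), irregular spots and controls were left out, and the log2 values of the 8 arrays were brought to one distribution by quantile normalization. Quantile normalization removes differences in overall RNA recovery. A gene's value was the mean over its probes of 60 bases that were well above background on at least 1 array, and 2 probes of the pathway genes were not used. Tables were made with Python 3.11.15, pandas 2.3.3 and numpy 2.4.6. With 1 array per condition no test was run, and the count of arrays limits the precision. The 8 alternatives tried changed the offset, the signal, the scaling, the averaging of probes or the filter. The rules were tested on simulated data. Genes named with the value on every array were a list of core genes, the 8 largest total RNA changes of each transition, the 6 highest and 6 lowest Ago enrichments and the 6 largest changes in Ago enrichment. The genes and lists were chosen with earlier results of these data known, and some genes are not reported by name here. Control immunoprecipitations were not used here.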

Additional observations from a re-analysis of the deposited data

How the results depend on the processing

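Of 89 gene values past 2-fold, none changed sign in any of the 8 alternatives, and 84 to 89 remained past 2-fold (71 of 71 where detection on every array was required). The counts of genes past 2-fold in total RNA, both directions summed, were within 1.5 times their value in every alternative, but from NPC to NPC/Neu the 5 higher and 9 lower genes became 9 and 12 with the processed signal and quantile normalization and 9 and 11 with its scaling to the 75th percentile. From ES to ELA the 2 higher genes became 3 in 4 alternatives. The counts of Ago enrichment moved further. In ES, 6 genes past 2-fold became 16 with the processed signal and quantile normalization, 10 when that signal was instead scaled by the 75th percentile, and 10 with quantile normalization within each kind of RNA. In ELA, 4 became 7 with the processed signal under either scaling. In NPC, 6 became 15, 12 and 11 in the same 3 settings, and in NPC/Neu 12 became 20 with the processed signal and quantile normalization. For the change in Ago enrichment from ELA to NPC, 1 became 2 with an offset of 16 and with quantile normalization within each kind of RNA, 5 with the processed signal under either scaling and 0 with the brightest probe of each gene. From NPC to NPC/Neu, 3 became 6 with the processed signal and quantile normalization. The cause was not tested. The scaling to the 75th percentile moved the median E of all genes by -0.33 in ES, -0.17 in NPC and -0.24 in NPC/Neu, and scaling within each kind of RNA moved it by 0.17 in ELA and by 0.14 in NPC and NPC/Neu. The bounds given for genes near background depend on the dimmest signals that passed, and changes between dim signals are understated by the offset. No paired analysis was possible because each group has 1 array.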
